A study of Mus musculus with 14 samples.

Results

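Hyaluronan metabolism was followed through 8 genes: the hyaluronan synthases Has1, Has2 and Has3, the hyaluronan receptor Cd44, the hyaluronan-binding matrix proteins Tnfaip6 and Vcan, and the hyaluronidases Hyal1 and Hyal2. They were taken by gene symbol from the 55427 genes that were annotated, and all 8 were among the 17358 genes with enough counts to be tested. Hyaluronan is a long unbranched sugar polymer that synthases in the plasma membrane extrude directly into the extracellular space. Cells grip it through CD44, link it to proteins with the TNFAIP6 product TSG-6, pack it with large aggregating proteoglycans (aggrecan in cartilage, versican in looser stroma) and break it down with hyaluronidases and lysosomal exoglycosidases. In marrow stroma and in bone tumours the polymer and its receptor are best known for their part in cell adhesion, migration and the retention of pericellular matrix.

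The RNA came from 14 cultured mouse clones, every one the progeny of 1 tdTomato+ cell taken from femur marrow following tamoxifen at P21. Fgfr3-WT (P23) clones (n = 5) carried Fgfr3-creER and the R26R-tdTomato reporter and were isolated at P23. Fgfr3-p53 cKO clones carried the same alleles and floxed Trp53, and were isolated at P28 (n = 5) or at 4 months (P4M, n = 4). Recombination was thus limited to cells in which Fgfr3-creER was active at the pulse, and each library represents the descendants of 1 such cell. The Fgfr3-WT (P23) clones were at Passage 8 and the P4M clones at Passage 6 to 8. P28 clones are listed at Passage 8, while the paper's methods give Passage 6 to 8 for cKO clones of both ages. The labels do not say whether clones of a group came from separate mice, so the p values measure the spread between clones. The sample names hold the number 1303 for all Fgfr3-WT clones and 2963 for all cKO clones, and its meaning is not given. Genotype, whatever this number stands for and age at isolation cannot be told apart in comparisons with the Fgfr3-WT (P23) clones. The paper also reports that wild-type clones grew more slowly than cKO clones and that a smaller share of them survived passaging. Clones at a similar passage can thus differ by genotype in time in culture and in selection of surviving clones. Neither can be told apart from genotype here, and neither was tested. Total counts per clone were 25688946 to 38958693 in the Fgfr3-WT, 37606033 to 48648618 in the P28 and 43757832 to 52857424 in the P4M clones.

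Trp53 followed the labels, with 1291 to 1772 counts in each Fgfr3-WT library and 85 to 123 in each cKO library. Stromal identity was checked with 6 markers (Prrx1, Pdgfra, Pdgfrb, Col1a2, Col3a1, Twist1), whose summed TPM was 114.8 to 1537 in the Fgfr3-WT (P23) clones, 3894 to 7619 in the P28 clones and 3020 to 9339 in the P4M clones. Col1a2 was nearly absent from Fgfr3-WT replicates 1 to 4 (0.04 to 0.23 TPM) but stood at 1213 TPM in Fgfr3-WT replicate 5, so this clone stands apart from its group, and calls that rest on it are given with and without it. The summed TPM of 6 chondrocyte markers moved the other way, from 426.9 to 6293 in the Fgfr3-WT clones to 61.2 to 469.5 in the P28 clones and 13.4 to 201.6 in the P4M clones. Tested gene by gene (edgeR, FDR of 0.05), 0 of the 6 stromal markers differed from Fgfr3-WT in P28 (38.9% of all tested genes did). Over all cKO clones 1 stromal marker was higher and all 5 testable chondrocyte markers were lower (48.8% of all tested genes differed). Of 9 haematopoietic markers 2 were at 0 in every Fgfr3-WT clone, and their sum (20.5 to 105.4 TPM in Fgfr3-WT, 3.88 to 33.0 in P28, 5.32 to 10.8 in P4M) was mostly Lyz2 in the Fgfr3-WT clones. The 6 endothelial markers summed to 0.03 to 0.25 TPM in Fgfr3-WT, 0.15 to 1.31 in P28 and 0.75 to 3.26 in P4M. Over all cKO clones the 1 testable endothelial marker, Kdr, was called higher (log2 fold change 4.59, edgeR). Of 4 testable haematopoietic markers 3 were called in this comparison, 2 higher and 1 lower, beside 48.8% of all tested genes.

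Expression is given below as CPM of the TMM-scaled library total when clones are compared, and as TPM, which is per transcript length, when genes are compared. Differences are log2 fold changes from the quasi-likelihood test of edgeR with all 14 clones in 1 model, with Benjamini-Hochberg adjustment over all tested genes, and a gene was called at an FDR of 0.05. Between all 9 cKO clones and the 5 Fgfr3-WT clones, 5 of the 8 genes were called (62.5%, where 48.8% of all tested genes were called, 23.1% higher and 25.7% lower): Cd44, Has1, Tnfaip6 and Vcan rose and Hyal1 fell. In the P28 clones 4 of 8 were called against Fgfr3-WT, 3 of them higher and 1 lower (38.9% of all genes called, 19.2% higher and 19.7% lower), and in the P4M clones 3 of 8, of which 2 were higher and 1 lower (45.9% of all genes, 22.3% higher and 23.6% lower). With so many genes called, the shares of called hyaluronan genes are near the background and are no result about them. Between the P4M and P28 clones none of the 8 genes was called by edgeR (7.22% of all genes were, 3.34% higher and 3.88% lower), with 1, Hyal2, at an unadjusted p under 0.05 and also called by DESeq2. Groups of clones did not overlap for 2 of the 8 genes in P28 against Fgfr3-WT, 1 higher and 1 lower, beside 24.5% of all genes (13% higher, 11.5% lower). In P4M against Fgfr3-WT they did not overlap for 2, both higher, beside 33.6% (17.8% higher, 15.7% lower), and between P4M and P28 for 1, lower, beside 19% (9.07% higher, 9.96% lower). All cKO and Fgfr3-WT clones overlapped for each of the 8 genes, while 18.1% of all genes did not overlap (9.73% higher, 8.38% lower). The median log2 fold change of the 8 genes in all cKO clones was 0.51, beside -0.05 over all tested genes. When a log2 fold change of at least 1 in size was demanded by the test, 1 call was left, Vcan in all cKO clones (adjusted p = 0.0449, edgeR). Of all tested genes 13.1% were called in that comparison.

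**Figure D1:**
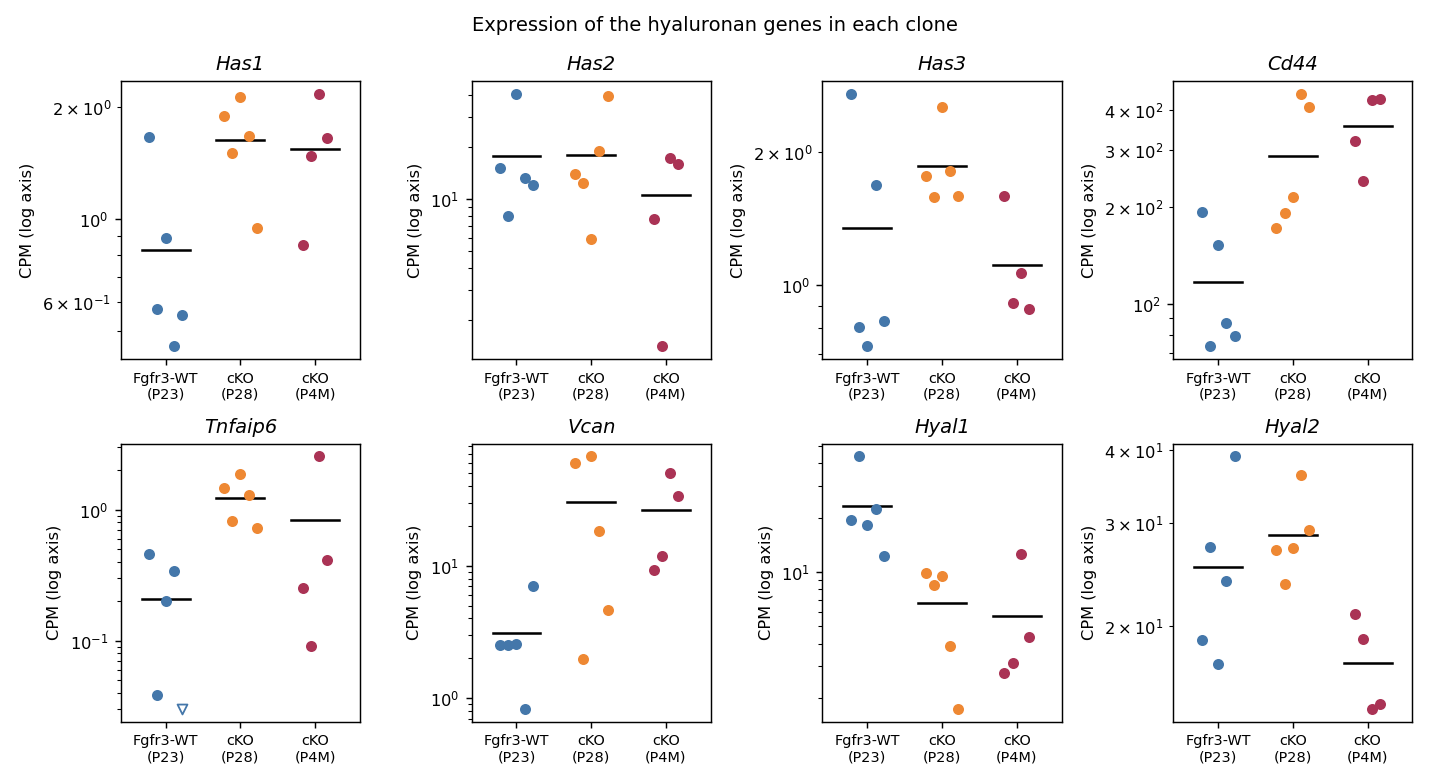
Each point is 1 clone, placed by its CPM on a log axis, with 5 Fgfr3-WT (P23), 5 Fgfr3-p53 cKO (P28) and 4 Fgfr3-p53 cKO (P4M) clones per panel. Black lines are group means, and the open triangle in the Tnfaip6 panel stands for a clone with 0 counts, drawn at the foot of the axis. Cd44 lay above the whole Fgfr3-WT range in all 4 P4M clones, Hyal1 lower in each of the 5 P28 clones, and Vcan spread from 1.96 to 67.4 CPM within the P28 group.

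To show the DNA ahead of the genes that were called, the stretch before the RefSeq start of each is given 5′ to 3′ on the gene's own strand (minus for Has1, Cd44 and Vcan, plus for Tnfaip6 and Hyal1), from GRCm38.p6, the build of mm10. Of the 250 bases before the RefSeq start, those that lie inside the GENCODE gene were left out, and the Hyal2 window, which lies wholly inside its GENCODE gene, is not printed. Capitals mark matches, on either strand, to the AP-1 motif TGANTCA, the GC box GGGCGG, the CCAAT box, the TATA box letters TATAAA, the E-box CACGTG or the p53 half-site consensus, and motifs may overlap. The 5 stretches are these, with Has1 at chr17:17855206-17855438, Cd44 at chr2:102901666-102901915, Tnfaip6 at chr2:52037863-52038008, Vcan at chr13:89742513-89742762 and Hyal1 at chr9:107576700-107576926.
Has1: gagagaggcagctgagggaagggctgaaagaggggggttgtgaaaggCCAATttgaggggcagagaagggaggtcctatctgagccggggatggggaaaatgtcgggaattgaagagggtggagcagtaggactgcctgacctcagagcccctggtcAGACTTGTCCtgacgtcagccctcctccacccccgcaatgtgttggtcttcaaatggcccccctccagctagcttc
Cd44: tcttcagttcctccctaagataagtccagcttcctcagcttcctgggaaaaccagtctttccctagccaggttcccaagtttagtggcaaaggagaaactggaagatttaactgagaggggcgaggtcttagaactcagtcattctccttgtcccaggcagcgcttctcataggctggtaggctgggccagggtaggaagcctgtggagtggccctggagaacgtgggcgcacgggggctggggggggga
Tnfaip6: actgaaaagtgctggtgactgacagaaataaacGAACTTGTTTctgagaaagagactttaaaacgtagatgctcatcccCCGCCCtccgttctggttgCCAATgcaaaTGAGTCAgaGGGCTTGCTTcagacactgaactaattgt
Vcan: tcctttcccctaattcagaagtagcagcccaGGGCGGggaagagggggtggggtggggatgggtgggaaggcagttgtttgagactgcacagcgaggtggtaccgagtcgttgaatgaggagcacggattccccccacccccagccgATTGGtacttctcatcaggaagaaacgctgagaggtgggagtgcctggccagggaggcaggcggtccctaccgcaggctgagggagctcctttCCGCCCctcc
Hyal1: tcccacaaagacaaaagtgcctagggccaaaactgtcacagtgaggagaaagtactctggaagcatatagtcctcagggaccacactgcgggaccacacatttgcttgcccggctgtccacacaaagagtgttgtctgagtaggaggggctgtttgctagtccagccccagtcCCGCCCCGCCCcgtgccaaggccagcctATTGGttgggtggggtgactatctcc

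The p53 half-site, the motif of the deleted factor, matched at 1 place before Has1 (AGACTTGTCC, 93 to 84 bases before the start) and at 2 places before Tnfaip6 (GAACTTGTTT at 217 to 208 and GGGCTTGCTT at 133 to 124 bases), while 7.13% of the 32851 mouse promoter windows of 250 bases held a match. The Tnfaip6 stretch also carried the AP-1 motif (142 to 136 bases before the start), which 6.75% of all windows held. GGGCGG, present in 32.7% of windows, matched before Vcan, Tnfaip6, Hyal1 and Hyal2, and CCAAT, present in 33.8%, before Has1, Tnfaip6, Vcan and Hyal1. The Cd44 window held none of the 6 motifs, and TATAAA (12.4% of windows) and CACGTG (6.02%) matched in none of the 6 windows searched. These are matches of letters only, and Has2 and Has3 were not searched.

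The synthases set how much hyaluronan a cell can make, and Has2 (ENSMUSG00000022367, chromosome 15, 56665627 to 56694539 in mm10, as for all genes here, minus strand) was the main one here. In the Fgfr3-WT (P23) clones Has2 stood at 15.1, 7.96, 40.8, 13.3 and 12.0 CPM. In the P28 clones it was 13.98, 12.4, 5.92, 18.9 and 39.5 CPM, and in the P4M clones 7.73, 1.41, 17.3 and 15.9 CPM. The groups overlapped almost completely, and the spread lay inside each group, 5.12-fold between the lowest and highest Fgfr3-WT clone, 6.67-fold in P28 and 12.3-fold in P4M. None of its comparisons was called. The log2 fold change of Has2 was 0.03 in P28 (95% interval -1.34 to 1.395, adjusted p = 0.978, edgeR) and -0.75 in P4M against Fgfr3-WT (-2.22 to 0.73, adjusted p = 0.392). These intervals leave room for changes of more than 2-fold either way in the P28 clones.

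Has1 and Has3, the other synthases, were expressed at much lower levels. Has1 (ENSMUSG00000003665, chromosome 17, 17843323 to 17855205, minus strand) stood at 1.66, 0.574, 0.890, 0.455 and 0.554 CPM in the Fgfr3-WT clones. It was 1.89, 1.51, 2.13, 1.67 and 0.948 CPM in the P28 clones and 0.854, 1.48, 2.17 and 1.65 CPM in the P4M clones. Only Fgfr3-WT replicate 1 lay among the cKO clones, apart from an edge overlap of replicate 3 with the lowest P4M clone. Over all cKO clones Has1 rose by 0.93 on the log2 scale (SE 0.361, adjusted p = 0.0454, edgeR), but neither P28 (0.98, adjusted p = 0.0661) nor P4M (0.89, adjusted p = 0.0940) was called alone by edgeR. DESeq2 called P28 (adjusted p = 0.0381), as did edgeR with at least 10 counts in every clone (adjusted p = 0.0399), and limma on log2(TPM + 1) called both P28 (adjusted p = 0.0401) and P4M (adjusted p = 0.0391), as it did on log2(TPM + 0.1). The call rested on the full set, since 11 of 14 fits with 1 clone omitted did not make it, Fgfr3-WT replicate 5 among them (0.82, adjusted p = 0.0985). The libraries held 14 to 110 Has1 counts.

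Has3 (ENSMUSG00000031910, chromosome 8, 106870242 to 106884566, plus strand) spanned 0.728 to 2.70 CPM in Fgfr3-WT, 1.58 to 2.52 CPM in P28 and 0.883 to 1.59 CPM in P4M clones. All groups overlapped, with log2 fold changes of 0.45 in P28 (adjusted p = 0.364, edgeR) and -0.28 in P4M (adjusted p = 0.595). Per length, Has2 took 86.4% ± 7.39 (SD, n = 5) of the summed synthase TPM in Fgfr3-WT, 77.9% ± 14.4 (SD, n = 5) in P28 and 66.3% ± 25.95 (SD, n = 4) in P4M. It was the largest of the 3 in every clone except P4M replicate 2, where its share was 27.7% and that of Has1 59.9%. That clone also had the lowest synthase sum, 1.77 TPM, beside 3.23 to 17.4 TPM in the others.

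Has2 has an antisense neighbour, Has2os (ENSMUSG00000086541, chromosome 15, 56689944 to 56778399, plus strand), a non-coding RNA that shares 182 exonic bases with it. Has2os stood at 2.93, 1.15, 3.64, 2.25 and 1.11 CPM in the Fgfr3-WT clones, at 1.48, 0.598, 0.735, 1.07 and 1.43 CPM in the P28 clones and at 0.346, 0.296, 0.790 and 0.357 CPM in the P4M clones. The P4M clones all lay below the Fgfr3-WT clones, while P28 overlapped both. Has2os fell by 2.30 on the log2 scale in P4M (SE 0.483, adjusted p = 0.00198, edgeR) and by 1.68 over all cKO clones (SE 0.365, adjusted p = 0.00209). In P28 it was not called by edgeR with all clones (-1.06, adjusted p = 0.0641). DESeq2 called it in P28, as did edgeR with at least 10 counts in every clone and without Fgfr3-WT replicate 2 or replicate 5. The SMART-Seq libraries do not mark strand, so reads from the shared bases cannot be told apart between Has2 and Has2os.

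**Figure D2:**
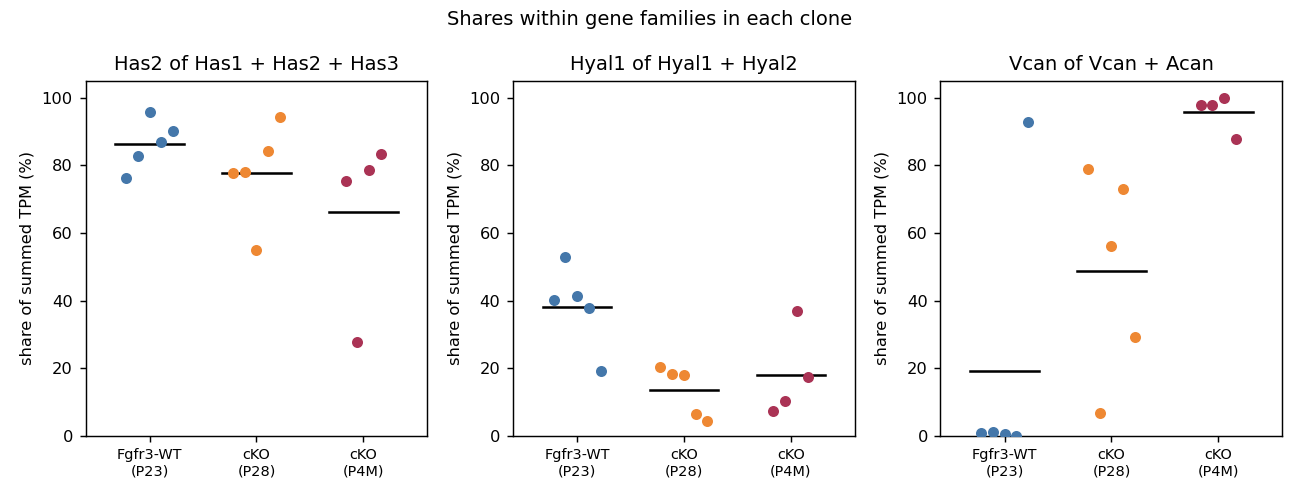
Points are clones and black lines are group means, and each axis gives a percent share of summed TPM, for Has2 among the 3 synthases (left), Hyal1 among Hyal1 and Hyal2 (middle) and Vcan among Vcan and Acan (right). The Hyal1 share had a median of 40.2% in the Fgfr3-WT clones and 17.8% in P28, and the Vcan share was 87.7% or more in every P4M clone but 1.07% or less in 4 of the 5 Fgfr3-WT clones.

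Cd44 (ENSMUSG00000005087, chromosome 2, 102811141 to 102901665, minus strand) encodes the main cell surface receptor for hyaluronan and was the most abundant of the 8 genes per length in every group. Fgfr3-WT clones had 193, 73.6, 152, 87.3 and 79.5 CPM of Cd44. P28 clones had 171, 192, 214, 449 and 408 CPM, and P4M clones 319.8, 240.2, 429.6 and 431 CPM. The P4M clones all exceeded every Fgfr3-WT clone, and among the P28 clones 2 (171 and 192 CPM) lay below the highest Fgfr3-WT clone. Cd44 rose by a log2 fold change of 1.29 in P28 (SE 0.349, adjusted p = 0.0106, edgeR) and 1.60 in P4M (SE 0.366, adjusted p = 0.00345), or 2.45-fold and 3.04-fold. The comparisons share the Fgfr3-WT clones. P4M and P28 differed by 0.31 (95% interval -0.47 to 1.09, adjusted p = 0.636). In TPM, Cd44 averaged 43.0 ± 22.9 (SD, n = 5) in Fgfr3-WT, 127.9 ± 61.7 (SD, n = 5) in P28 and 136.3 ± 36.3 (SD, n = 4) in P4M. All 3 calls against Fgfr3-WT were kept in each of the 14 fits without 1 clone, with log2 fold changes of 1.32 to 1.69 over all cKO clones. Cd44 was chosen with its change in these clones already known, so its direction is not independent evidence.

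CD44 is made in a short standard form and in longer forms that carry variable exons, and 9 Cd44 transcripts of 1.31 to 5.61 kb are annotated. The mean transcript length of a gene in a clone is implied by its count and its FPKM in the deposited tables. Has2, with 1 annotated transcript of 4.24 kb, gave 3.94 to 4.00 kb in all 14 clones, below the annotated length. With 1 transcript a nearly steady value was fixed in advance. Has2 therefore does not show the error of the measure for genes with several transcripts, such as Cd44 and Vcan. Tnfaip6, also with 1 annotated transcript (1.71 kb), gave a median of 1.45 kb, so implied and annotated lengths are not directly comparable. For Cd44 the implied length was 3.55 to 3.85 kb in Fgfr3-WT, 3.62 to 3.74 kb in P28 and 3.66 to 3.73 kb in P4M. The cKO clones fell inside the range of the Fgfr3-WT clones, and the highest value was 1.08 times the lowest. This measure was added after the data were seen and was not tested.

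Around Cd44, 15 other tested genes lie within 1 Mb, of which 8 were called higher in all cKO clones and 0 lower (edgeR), with a median log2 fold change of 0.74, and 2 of the 15 exceeded Cd44. Of all tested genes 23.1% were called higher in this comparison. The 5 genes whose log2 CPM, after removal of group means, followed Cd44 most closely over the 14 clones were Slc25a37 (Pearson r = 0.969), Adamts1 (0.951), Tfip11 (0.935), Tnpo2 (0.920) and Ptgs2 (0.917), out of 9659 genes compared. Adamts1 is a secreted protease that cuts versican, and Ptgs2 makes prostaglandin precursors. For Has2 the closest were Zdhhc15 (0.902), Cc2d1b (0.899), Spag7 (0.855), Sf3a3 (0.839) and Nqo2 (0.831). Among the 8 genes themselves the same measure ran from -0.65 for Hyal2 and Tnfaip6 to 0.68 for Cd44 and Has2. These values are descriptions over clones, and the genes compared were measured in the same libraries.

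Tnfaip6 (ENSMUSG00000053475, chromosome 2, 52038009 to 52056686, plus strand) encodes TSG-6, a secreted protein that binds hyaluronan and transfers heavy chains of inter-alpha-inhibitor onto it. It was the scarcest of the 8 genes in the Fgfr3-WT clones, with 14, 1, 5, 12 and 0 counts, or 0.456, 0.0383, 0.202, 0.341 and 0 CPM. The count of 0 in replicate 5 allows up to 0.119 CPM (3 counts). The P28 clones held 68, 34, 94, 64 and 28 counts, or 1.46, 0.813, 1.87, 1.29 and 0.717 CPM, all above the Fgfr3-WT clones. In P4M the clones held 0.254, 0.0910, 2.55 and 0.413 CPM, and replicate 3 alone reached the P28 range. Tnfaip6 rose in P28 by 2.52 on the log2 scale (SE 0.913, adjusted p = 0.0425, edgeR) and over all cKO clones by 2.23 (SE 0.850, adjusted p = 0.0432), and was not called in P4M (1.95, adjusted p = 0.105). The P28 call was lost in 10 of 14 fits without 1 clone and the call over all cKO clones in 8 of 14. Without Fgfr3-WT replicate 5 the values were 2.21 (adjusted p = 0.0635) and 1.93 (adjusted p = 0.0709). Without P4M replicate 3 the P4M value was 0.26 (adjusted p = 0.819) and that over all cKO clones 1.39 (adjusted p = 0.107).

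Vcan (ENSMUSG00000021614, chromosome 13, 89655312 to 89742509, minus strand) encodes versican, the large hyaluronan-binding proteoglycan of loose and provisional matrix, and had the largest fold change of the 8 genes. Fgfr3-WT clones had 2.51, 2.53, 2.55, 0.825 and 7.005 CPM of Vcan. P28 clones had 60.3, 1.96, 67.4, 18.4 and 4.61 CPM, and P4M clones 9.23, 11.8, 50.3 and 33.9 CPM. All P4M clones lay above all Fgfr3-WT clones, while P28 replicates 2 and 5 lay among them, so that the P28 group alone spanned 34.4-fold. The log2 fold change of Vcan was 3.31 in P28 (SE 0.925, adjusted p = 0.0127, edgeR) and 3.10 in P4M (SE 0.941, adjusted p = 0.0164). It was 3.20 over all cKO clones (SE 0.878, adjusted p = 0.00870) and 3.76 without Fgfr3-WT replicate 5 (adjusted p = 0.00757). All 3 calls stood in the 14 fits without 1 clone.

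The implied transcript length of Vcan was not steady. It was 5.47, 2.19, 3.94, 12.4 and 8.20 kb in the Fgfr3-WT clones, 8.90, 3.74, 5.63, 6.33 and 3.99 kb in the P28 clones and 4.48, 4.65, 7.57 and 8.12 kb in the P4M clones. The groups overlapped, and the highest value was 5.68 times the lowest. Versican is spliced to forms that keep or skip long glycosaminoglycan-bearing exons, and the 5 annotated transcripts of more than 2.2 kb measure 2.27, 2.32, 5.70, 8.33 and 12.4 kb. Implied lengths lay below the annotated ones for Has2 and Tnfaip6, so no Vcan value is matched to a transcript here. The highest value came from 29 counts, where rounding of FPKM alone allows 11.5 to 13.5 kb, whereas P28 replicate 1 and P28 replicate 3, with 2803 and 3389 counts, still differed (8.90 against 5.63 kb). The TPM of Vcan depends on this length. On log2(TPM + 1) its fold change over all cKO clones was 1.73 (adjusted p = 0.0106, limma), still called.

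**Figure D3:**
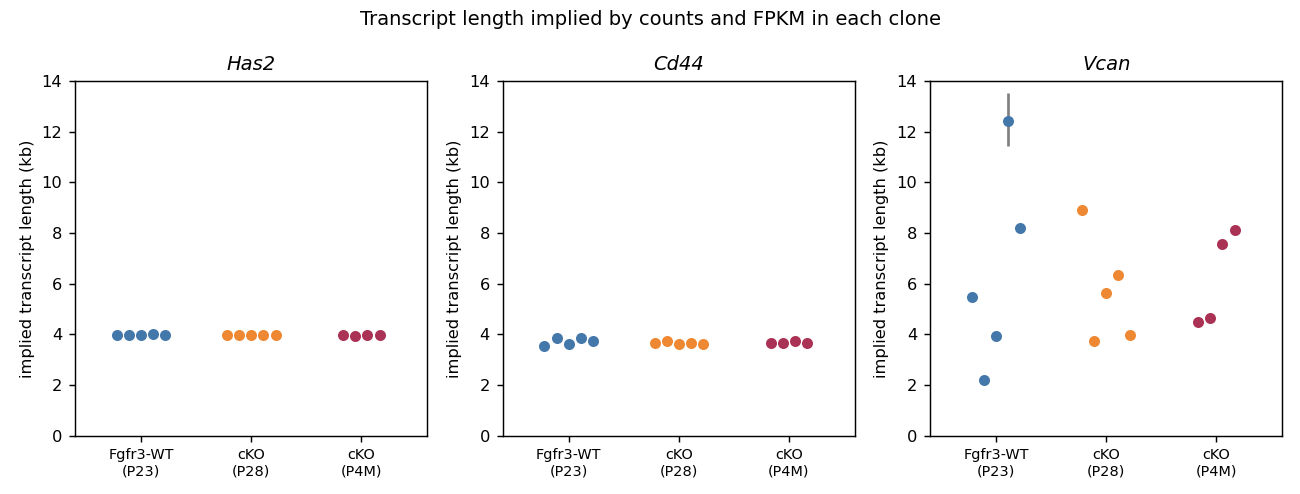
Each point is the mean transcript length, in kb, that a clone's count and FPKM imply for Has2 (left), Cd44 (middle) and Vcan (right), and vertical grey bars show the range that rounding of FPKM allows. Has2 and Cd44 lie near 4 kb and 3.7 kb in every clone, and Vcan runs from 2.19 to 12.4 kb with no separation of the groups.

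Versican and aggrecan, the cartilage proteoglycan, occupy the same kind of site on hyaluronan, and their balance differed between most clones of the genotypes. Vcan made up 0.849%, 1.07%, 0.583%, 0.0428% and 92.9% of the summed Vcan and Acan TPM in Fgfr3-WT replicates 1 to 5. In the P28 clones the share was 78.9%, 6.65%, 56.1%, 73.1% and 29.1%, and in the P4M clones 98.0%, 98.0%, 100% and 87.7%. Fgfr3-WT replicate 5 lay among the P4M clones, with Acan at 0.09 TPM, against 75.9 to 186.7 TPM in the other Fgfr3-WT clones. Acan fell by 6.69 on the log2 scale over all cKO clones (SE 1.18, adjusted p = 0.000526, edgeR). All 5 of the chondrocyte markers that could be tested also fell in this comparison, out of 6 listed, and their part in the change of Acan and Vcan was not tested. In a bulk library, fewer cells of a kind and less RNA per cell cannot be told apart.

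The region around Vcan also holds Hapln1 (chromosome 13, 89539796 to 89611652), whose product, link protein, fixes aggrecan and versican to hyaluronan. Of 6 tested genes within 1 Mb of Vcan, 3 were called lower and 1 higher in all cKO clones, and none had a fold change as high as Vcan. Among all tested genes 25.7% were called lower and 23.1% higher in this comparison. Hapln1 fell by 2.72 on the log2 scale (SE 0.721, adjusted p = 0.00721, edgeR), from a median of 47.8 TPM in Fgfr3-WT to 7.86 in P28 and 2.445 in P4M, although 1 P28 clone reached 55.5 TPM.

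Hyal1 and Hyal2 are hyaluronidases, Hyal2 anchored at the cell surface and Hyal1 lysosomal. Hyal1 (ENSMUSG00000010051, chromosome 9, 107576927 to 107581710, plus strand) stood at 19.4, 43.7, 18.2, 22.4 and 12.2 CPM in the Fgfr3-WT clones. It was 9.90, 8.51, 9.52, 3.91 and 1.74 CPM in the P28 clones and 2.77, 3.14, 12.5 and 4.36 CPM in the P4M clones. All P28 clones lay below all Fgfr3-WT clones, and P4M replicate 3 alone, at 12.5 CPM, touched the lowest Fgfr3-WT clone. Hyal1 fell by 1.78 on the log2 scale in P28 (SE 0.543, adjusted p = 0.0196, edgeR), by 2.02 in P4M (SE 0.594, adjusted p = 0.0138) and by 1.90 over all cKO clones (SE 0.455, adjusted p = 0.00388). The P28 call was lost without Fgfr3-WT replicate 2 (adjusted p = 0.0553), and the others were kept in all 14 such fits. Without P4M replicate 3 the P4M value was -2.75.

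Hyal1 shares 1920 of its 3777 exonic bases with Naa80, an acetyltransferase gene on the same strand, and 159 with Hyal3. Naa80 fell as well, by 1.26 on the log2 scale over all cKO clones (adjusted p = 9.09e-05, edgeR). The methods count only reads that map without ambiguity, but the deposited counts equal the expected counts at every gene they share, so how reads in these exons were assigned is not known and the Hyal1 count is uncertain to that extent. Near Hyal1, 30 of 69 tested genes within 1 Mb were called lower and 14 higher in all cKO clones, beside 25.7% of all genes called lower, and 8 of the 69 had a lower fold change than Hyal1.

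Hyal2 (ENSMUSG00000010047, chromosome 9, 107567945 to 107572779, plus strand) stood at 18.9, 27.3, 17.2, 23.8 and 38.9 CPM in the Fgfr3-WT clones. It was 26.9, 23.6, 27.2, 36.2 and 29.2 CPM in P28 and 20.99, 19.0, 14.4 and 14.7 CPM in P4M. The P4M clones all lay below the P28 clones, and the Fgfr3-WT clones overlapped both. Hyal2 was the only one of the 8 genes whose cKO groups did not overlap each other (19% of all tested genes did not overlap between P4M and P28). The difference, -0.73 (95% interval -1.23 to -0.23, adjusted p = 0.0707, edgeR), was not called, and it was called by DESeq2 (-0.72, adjusted p = 0.0330) and when the P28 and P4M clones were fitted without the Fgfr3-WT clones (-0.73, adjusted p = 0.0207). In the test for any difference among the 3 groups, which 50.6% of all genes passed, Hyal2 was called (adjusted p = 0.0461), with Cd44 (0.00698), Hyal1 (0.0113) and Vcan (0.0228).

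As a share of the summed TPM of Hyal1 and Hyal2, Hyal1 made up 19.1% to 52.8% in the Fgfr3-WT clones, 4.28% to 20.4% in the P28 clones and 7.27% to 37.0% in the P4M clones. Fgfr3-WT replicate 5 had the lowest share of its group and lay among the P28 clones. The mean share was 38.2% ± 12.1 (SD, n = 5) in Fgfr3-WT, 13.4% ± 7.50 (SD, n = 5) in P28 and 18.0% ± 13.3 (SD, n = 4) in P4M. Hyal2 was thus the more abundant hyaluronidase per length in every clone but Fgfr3-WT replicate 2.

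**Figure D4:**
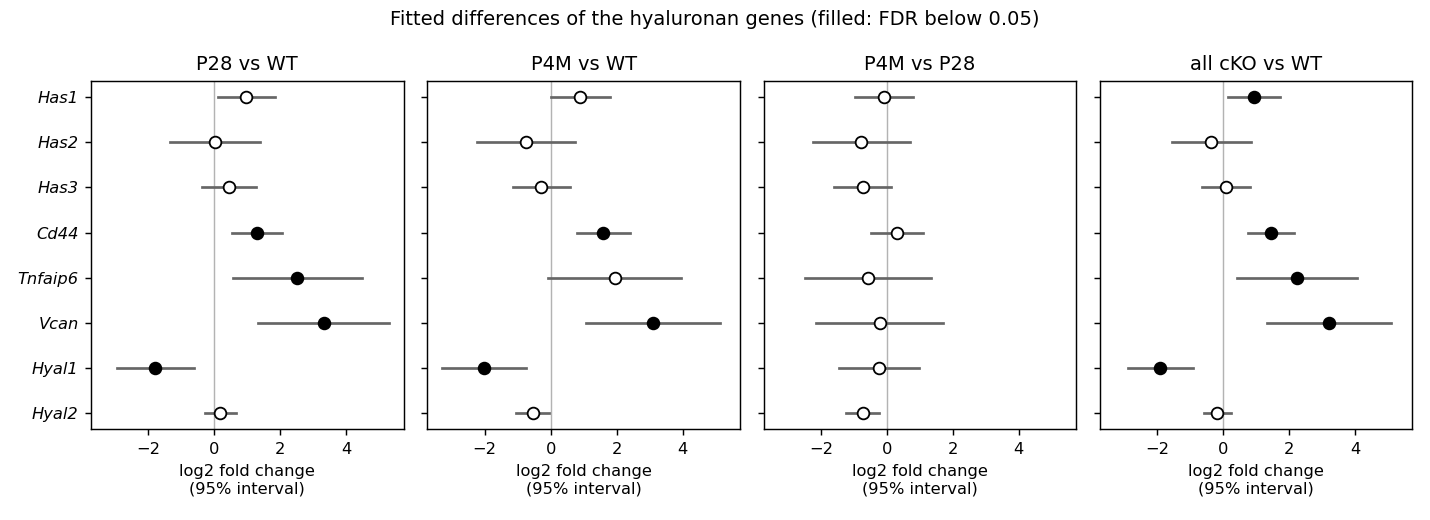
Fitted log2 fold changes (points) with 95% intervals (bars) for the 8 genes in the 4 comparisons, where filled points passed an FDR of 0.05. Cd44, Vcan and Hyal1 were called in both cKO groups against Fgfr3-WT, Tnfaip6 in P28 and over all cKO clones, Has1 over all cKO clones, and none between P4M and P28.

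Ordered by mean TPM, the Fgfr3-WT clones ran from Cd44 (43.0) through Hyal2 (20.9), Hyal1 (13.0) and Has2 (6.00) to Vcan (0.866), Has1 (0.420), Has3 (0.354) and Tnfaip6 (0.188). In the P28 clones Vcan (7.59 ± 7.78, SD, n = 5) and Has2 (7.42 ± 5.40, SD, n = 5) stood above Hyal1 (4.43 ± 2.32, SD, n = 5), and in the P4M clones the same 3 genes stood at 5.45 ± 2.92, 3.79 ± 2.66 and 3.31 ± 2.63 TPM (SD, n = 4). Vcan and Has2 differed by less than the SD of either in both cKO groups, as did Has2 and Hyal1 in P4M and Has1 and Has3 in Fgfr3-WT. In P28 the difference of Has2 and Hyal1 was below the SD of Has2 but above that of Hyal1. Cd44 stood clear of the others in the P28 and P4M groups, where its lowest clone (74.8 and 90.4 TPM) exceeded the highest Hyal2 clone (37.3 and 19.25 TPM).

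The wider pathway was described with 44 other genes in 6 roles, of which 37 could be tested. Over all cKO clones 12 rose and 9 fell (21 of 37, 56.8%, beside 48.8% of all genes), with a median log2 fold change of -0.19. Against Fgfr3-WT, 16 were called in P28 (43.2%, 11 higher and 5 lower, beside 38.9% of all genes) and 21 in P4M (56.8%, 11 higher and 10 lower, beside 45.9%). Between P4M and P28, 5 were called (13.5%, 2 higher and 3 lower, beside 7.22%). Named in what follows are, for each role, at most the 4 called genes with the largest change over all cKO clones and at most 2 called between P4M and P28.

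Among 7 genes that make the sugar nucleotide precursors, 2 rose over all cKO clones and 0 fell (28.6%, beside 48.8% of all tested genes). With so few genes in each role, this and the counts by role below are no result about the roles. Ugdh, which makes UDP-glucuronic acid, rose by 0.94 on the log2 scale (SE 0.160, adjusted p = 0.000389, edgeR), from a median of 46.6 TPM in Fgfr3-WT to 78.4 in P28 and 124.5 in P4M. It was also higher in P4M than in P28 (0.77, adjusted p = 0.0270), with no overlap of these groups, although 5 of 14 fits without 1 clone and both limma fits on TPM (adjusted p = 0.0562 and 0.0538) lost this call. Gnpnat1, which acetylates glucosamine 6-phosphate, rose by 0.73 (SE 0.281, adjusted p = 0.0454), a call lost in 11 of 14 such fits, that without Fgfr3-WT replicate 5 among them (0.58, adjusted p = 0.106). Gnpnat1 averaged 33.8 CPM in Fgfr3-WT, 42.6 in P28 and 73.7 in P4M, and was called in P4M (1.12, adjusted p = 0.0130, edgeR) but not in P28 (0.33, adjusted p = 0.419).

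Of 6 other degradation genes, 3 fell and 1 rose over all cKO clones (66.7%, beside 48.8% of all tested genes). Hexa, a subunit of the lysosomal hexosaminidases, fell by 1.77 on the log2 scale (SE 0.222, adjusted p = 4.83e-05, edgeR), and every cKO clone was below every Fgfr3-WT clone, with medians of 850.35 TPM in Fgfr3-WT, 278.6 in P28 and 373.55 in P4M. Hyal3, at no more than 21 counts per library, fell by 1.06 (adjusted p = 0.0262, edgeR), a call lost in 4 of 14 fits without 1 clone. Without Fgfr3-WT replicate 5 Hyal3 was at -0.87 (adjusted p = 0.0768), and both limma fits lost its call too. Cemip2, a transmembrane protein linked to hyaluronan breakdown at the cell surface, averaged 45.6 CPM in Fgfr3-WT, 118.9 in P28 and 70.7 in P4M. It rose in P28 (1.38, adjusted p = 0.00326, edgeR) and over all cKO clones (1.01, adjusted p = 0.00841), and was not called in P4M (0.63, adjusted p = 0.117).

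Of 5 other hyaluronan receptors 4 were tested, and 2 rose and 1 fell over all cKO clones (75%, beside 48.8% of all tested genes). Hmmr, a hyaluronan-binding protein that is also a mitotic spindle component, rose by 3.45 on the log2 scale (SE 0.875, adjusted p = 0.00560, edgeR), from a median of 0.21 TPM to 17.4 in P28 and 10.6 in P4M. Fgfr3-WT replicate 4 held 10.6 CPM of Hmmr against a group median of 0.574 CPM, and without it the value was 5.11. Layn, the lectin-type receptor layilin, fell by 3.33 (SE 0.481, adjusted p = 0.000138), with no overlap between genotypes. Stab1, a scavenger receptor of endothelium and macrophages, rose by 3.45 (SE 0.675, adjusted p = 0.00103), but from 2 to 6 counts per Fgfr3-WT library and not by limma on log2(TPM + 0.1) (adjusted p = 0.0643), and its median was 7.15 CPM in P4M but 0.344 CPM in P28. It was higher in P4M than in P28 (3.98, adjusted p = 0.00874), although P4M replicate 3 had only 0.277 CPM and both limma fits on TPM lost the call (adjusted p = 0.126 and 0.256). Stab2, a related scavenger receptor, was lower in P4M than in P28 (-3.12, adjusted p = 0.0103). Beside Stab1, the endothelial markers summed to 0.03 to 0.25 TPM in Fgfr3-WT, 0.15 to 1.31 in P28 and 0.75 to 3.26 in P4M, with 2 of 6 at 0 in every P4M clone, and their part in the result was not tested.

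Of 12 listed hyaluronan-binding matrix partners 8 were tested, and in P28 alone 1 was called higher and 2 lower (37.5%, beside 38.9% of all tested genes). Over all cKO clones 5 fell and 0 rose (62.5%, beside 48.8%). Besides Acan and Hapln1, they included Itih2, a heavy chain of inter-alpha-inhibitor, which fell by 3.84 on the log2 scale (SE 0.546, adjusted p = 0.000124, edgeR) and was lower again in P4M than in P28 (-5.32, adjusted p = 0.00504). Itih5, a related heavy chain, was also lower in P4M than in P28 (-5.16, adjusted p = 0.0123), on 0 to 7 counts per P4M library. The median of Itih2 was 59.6 TPM in Fgfr3-WT, 24.4 in P28 and 0.635 in P4M. Bcan, brevican, fell by 3.20 (SE 1.03, adjusted p = 0.0206), a call that rested on Fgfr3-WT replicate 4, without which the value was -1.04 (adjusted p = 0.362). Both limma fits on TPM also lost the Bcan call (adjusted p = 0.200 and 0.486).

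Of 8 genes that anchor CD44 to the cytoskeleton or cut it, 4 rose and 0 fell over all cKO clones (50%, beside 48.8% of all tested genes). Mmp14, a membrane protease that sheds CD44, rose by 1.93 on the log2 scale (SE 0.285, adjusted p = 0.000153, edgeR), with medians of 91.1 TPM in Fgfr3-WT, 524.5 in P28 and 387.0 in P4M and no overlap between genotypes. Rdx and Msn, which tie CD44 to actin, rose by 0.54 (adjusted p = 0.000872) and 0.45 (adjusted p = 0.0405), the latter lost in 9 of 14 fits without 1 clone, that without Fgfr3-WT replicate 5 among them (0.43, adjusted p = 0.0732). Mmp9, a secreted gelatinase, was called higher (adjusted p = 0.0105), and its Fgfr3-WT libraries held 0 to 3 counts, so no fold is given, and limma on log2(TPM + 1) did not call it (adjusted p = 0.194). Of 6 listed proteases that cut versican 4 were tested, and 3 rose over all cKO clones, where 23.1% of all genes did, while Adamts9 was called in P28 (3.05, adjusted p = 0.0120) but not over all cKO clones (1.76, adjusted p = 0.0662). Adamts4 rose by 3.18 (SE 0.654, adjusted p = 0.00149), Adamts1 by 3.06 (SE 0.746, adjusted p = 0.00436) and Adamts5 by 2.75 (SE 0.377, adjusted p = 9.37e-05). Each had every cKO clone above every Fgfr3-WT clone, as did 9.73% of all tested genes. The Adamts4 value was 4.37 when Fgfr3-WT replicate 5 was omitted.

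**Figure D5:**
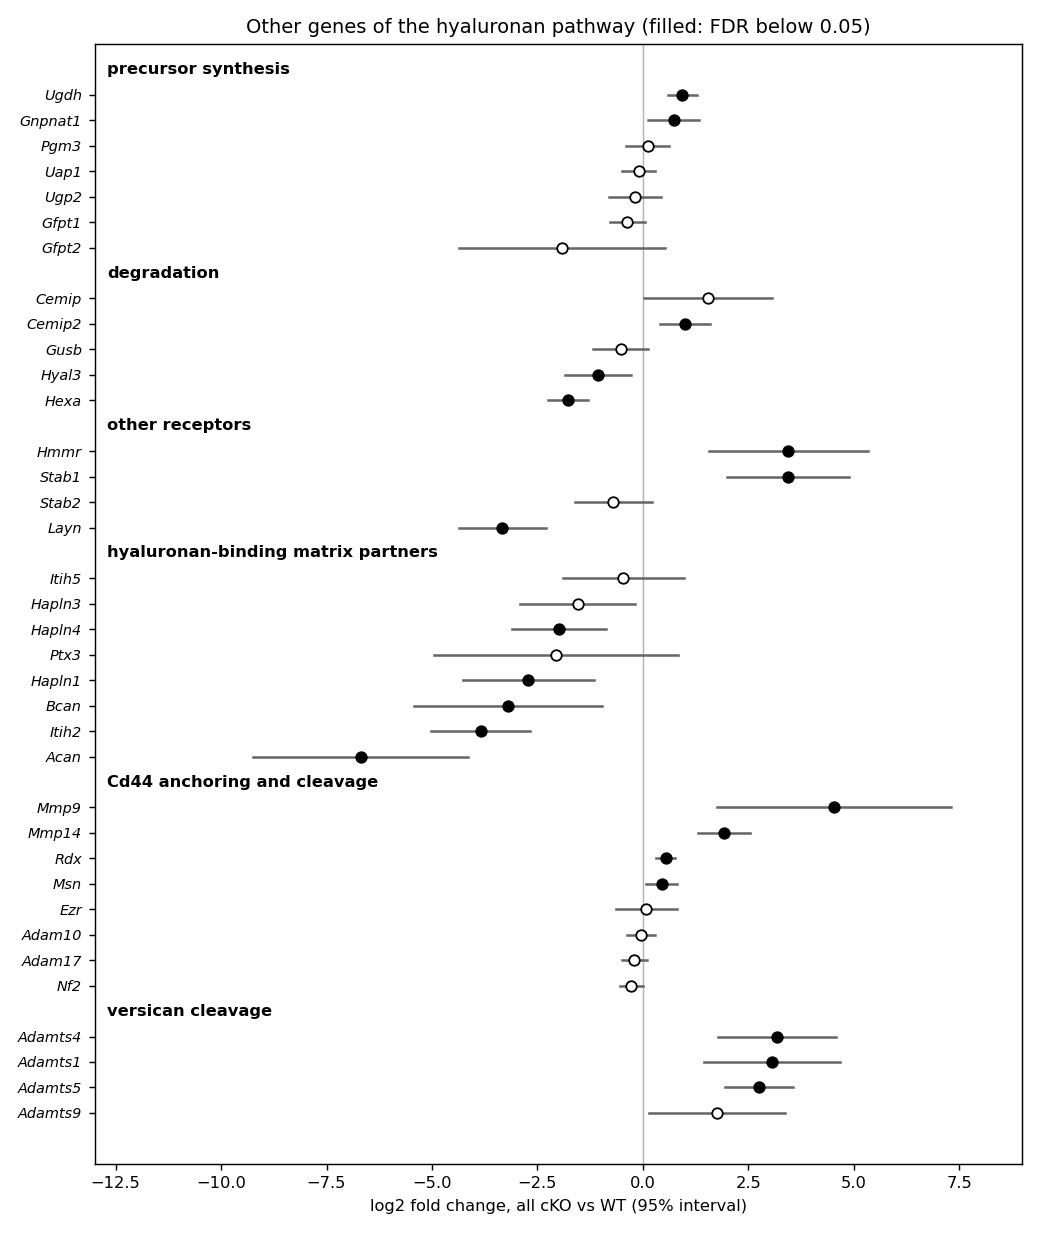
Log2 fold changes over all cKO clones against Fgfr3-WT (points) with 95% intervals (bars) for 36 of the 37 tested pathway genes, grouped by role, where filled points passed an FDR of 0.05. All 5 called matrix partners lie left of 0, and all called genes of CD44 anchoring and cleavage and of versican cleavage lie right of it.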

How the data were processed

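RNA of 14 clones was made into SMART-Seq v4 and Nextera XT libraries and sequenced as 50-cycle single-end reads. According to the methods, the authors used TopHat and Bowtie2 for alignment (mm10), HTSeq for reads that mapped without ambiguity and DESeq2 for tests (versions not given in the sources used here). The authors deposited raw counts per gene for 30503 genes, and expected counts, TPM and FPKM for 55427 genes. The deposited expected counts equal the deposited counts at all 30503 genes, and the program behind the authors' expected counts, TPM and FPKM is not given in the sources used here. Other deposited tables hold DESeq2-normalised counts and their rlog transform and were not used here.

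Counts were tested with edgeR 4.0.16 in R 4.3.3 (TMM scaling, filterByExpr, robust quasi-likelihood F-test) in 1 model of 3 groups, with Benjamini-Hochberg adjustment over 17358 genes at an FDR of 0.05. The all cKO value is the mean of the P28 and P4M effects. Intervals are 95% intervals of the fit, and floors (3 counts) cover counting error only. Alternatives were DESeq2 1.42.0, limma 3.58.1 on log2(TPM + 1) and log2(TPM + 0.1), other filters and scaling, a minimum log2 fold change of 1, only the groups compared, and leaving out each clone. The fit was tested on simulated data in which far fewer genes changed than were called here. The simulation therefore does not show how the fit behaves under so broad a change. The members, pathway and marker lists were chosen with earlier results of these data known. Named were all 8 members, Trp53, Has2os, for each pathway role at most 4 genes called over all cKO clones and at most 2 called between P4M and P28 by size of change, and the 5 genes most like Cd44 and Has2 (mean log2 CPM of at least 3). Implied transcript length, the unscaled CPM of a gene divided by its FPKM (in kb), was added after the data were seen. For 1 pathway gene, which the counts include, values are not reported here. Gene positions are from GENCODE M21, and promoter stretches from RefSeq.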

Additional observations from a re-analysis of the deposited data

Results flagged for a closer look

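None of the 8 hyaluronan genes met a criterion for a closer look, but 5 pathway genes differed between the effects of the cKO groups and 3 clones stood far from their group. The 5 are the pathway genes called between P4M and P28 (13.5% of the 37 tested, beside 7.22% of all tested genes). Being called in this comparison was also a rule by which pathway genes were named, so this criterion repeats that choice and adds no support. Between P4M and P28 the log2 fold change was 0.77 for Ugdh (adjusted p = 0.0270, edgeR), 3.98 for Stab1 (adjusted p = 0.00874), -3.12 for Stab2 (adjusted p = 0.0103), -5.32 for Itih2 (adjusted p = 0.00504) and -5.16 for Itih5 (adjusted p = 0.0123). With limma on log2(TPM + 1) the Ugdh and Stab1 differences were not called (adjusted p = 0.0562 and 0.126), nor were they on log2(TPM + 0.1).

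By Dixon's criterion on log2(CPM + 0.1), the lone clones were P4M replicate 3 for Stab1 (0.277 CPM), Fgfr3-WT replicate 5 for Acan (0.475 CPM) and P28 replicate 5 for Itih5 (0.154 CPM). These are 3 of 96 groups of clones examined, and chance alone gives about 1 in 20.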

How the results depend on the processing

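Cd44 and Vcan kept their calls against Fgfr3-WT in all 14 fits without 1 clone. The number of the 8 genes called between P4M and P28 was 1 with no scaling, with only the groups compared, with DESeq2 and with limma on log2(TPM + 1) or log2(TPM + 0.1), the gene being Hyal2. Of all tested genes 6.94%, 18.3%, 15%, 9.04% and 9.63% were called in these fits, in the same order. With a log2 fold change of at least 1 demanded, 0 of the 8 genes were called in P28, 0 in P4M and 1 over all cKO clones, and of the pathway genes 9, 10 and 11, with 1 between P4M and P28. The shares of all tested genes called were 9.4% in P28, 13.8% in P4M, 13.1% over all cKO clones and 0.271% between P4M and P28. With at least 10 counts in every clone, 13 pathway genes were called in P4M (48.5% of all genes tested) and 3 between P4M and P28 (8.07%). Between P4M and P28, 12 were called with only the groups compared (18.3% of all tested genes) and 10 with DESeq2 (15%). Without 1 clone each, the 8 genes gave 2 to 6 calls in P28, 3 to 5 in P4M, 0 to 1 between P4M and P28, 3 to 5 over all cKO clones and 2 to 5 among the 3 groups. Of all tested genes 33.6% to 41.7%, 38.3% to 48.6%, 2.7% to 12.3%, 44.1% to 50.3% and 43.8% to 54.7% were called, in the same order. The pathway genes gave 13 to 18, 17 to 24, 4 to 6 and 18 to 21, and the Has2 share was 84.1% to 88.9% in Fgfr3-WT, 73.8% to 83.6% in P28 and 60.6% to 79.2% in P4M. The cause was not tested.

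Only uncalled values changed sign. With limma on log2(TPM + 1) these were Has1 (0.025) and Vcan (0.012) between P4M and P28 and Hyal2 over all cKO clones (0.061), and on log2(TPM + 0.1) 0.036, 0.15 and 0.061. On the 2 limma scales the median of all genes was 0.20 and 0.31 in P28, where edgeR gave -0.0156. It was 0.13 and 0.20 over all cKO clones (edgeR -0.0495) and -0.14 and -0.19 between P4M and P28 (edgeR -0.0134). Without 1 clone each, Has2 ran from -0.50 to 0.58 in P28 and -0.62 to 0.20 over all cKO clones, Has3 from -0.48 to 0.13 in P4M and -0.073 to 0.49 over all cKO clones, and Hyal2 from -0.30 to 0.026 over all cKO clones. Between P4M and P28, Vcan ran from -0.73 to 0.33, Has1 from -0.29 to 0.15 and Hyal1 from -0.97 to 0.026. No paired analysis was possible because the replicate numbers are running numbers that tie no clones across groups. Fitting only the groups compared is the same fit for all cKO clones, and the minimum change was not applied to the test of 3 groups.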
